A study of Homo sapiens with 8 samples.

Results

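The ZMYND8 and NCOA3 locus is a 600 kb window of chromosome 20 (hg19, 45.8 to 46.4 Mb) that holds both genes and the acetylated chromatin around them. Its members were the H3K27ac peaks overlapping that window, taken from the authors' peak list of each library. The siRNA-1 library had 46 of them and the siRNA-2 library 43, against 41 for control 1 and 46 for control 2. Merged wherever they overlapped by 1 bp or more, they formed 46 of the 60669 regions of chromosomes 1 to 22 and X. The window was chosen by called length, because its peaks covered less sequence after CEBPB knockdown in these same libraries, so every knockdown value below is a description and none was tested. A comparison of 2 libraries with 2 could in any case give no exact permutation p below 0.333.

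The libraries come from A549, an established human lung adenocarcinoma line with constitutively active NRF2. One knockdown library received CEBPB siRNA-1 and the other CEBPB siRNA-2, while 2 libraries received control siRNA, and all were immunoprecipitated for H3K27ac. The medium was changed 24 h after transfection and the cells were harvested a further 24 h later. No source used here says that the controls came from separate cultures, and each siRNA was used once, so the spread between libraries may be technical or may include a difference between the siRNAs. Over chromosomes 1 to 22 and X the peaks covered 70.4 Mb in the siRNA-1 library and 61.7 Mb in the siRNA-2 library, against 67.9 and 62.1 Mb in the controls. The sequencing depth is unknown, since the peak lists carry no read counts.

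H3K27ac, acetylation of lysine 27 of histone H3, is laid down largely by the acetyltransferases p300 and CBP and marks active promoters and enhancers. Both genes of the window encode proteins that work on acetylated chromatin. ZMYND8, also called RACK7, carries a PHD finger, a bromodomain and a PWWP domain, binds acetylated and methylated histone tails, and has been found with the histone demethylase KDM5C at enhancers. NCOA3, also called SRC-3 or AIB1, is a coactivator of nuclear receptors that brings p300 and CBP to DNA and is amplified in some breast cancers. CEBPB is a basic leucine zipper factor that binds DNA as a dimer. The genes read away from each other: ZMYND8 lies at 45.838 to 45.986 Mb and reads leftward from its upper end, and NCOA3 lies at 46.131 to 46.286 Mb and reads rightward. Their starts face each other across 145 kb. In the gene order of the RefSeq table, EYA2 precedes ZMYND8 and SULF2 follows NCOA3 among the protein-coding genes.

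The sequence just before each start is shown because a called peak lay over both starts in all 4 libraries. It is taken from RefSeq (GRCh38.p14), a different build from that of the peaks, and runs 5′ to 3′ along the gene. The ZMYND8 sequence is chr20:47356700-47356949, minus strand, before the outer of the 2 ZMYND8 starts in the table, and the NCOA3 sequence is chr20:47501637-47501886, plus strand. Capitals mark a match to TTGCNNCAA, a pattern searched as a loose C/EBP motif, where N is any base.
ZMYND8: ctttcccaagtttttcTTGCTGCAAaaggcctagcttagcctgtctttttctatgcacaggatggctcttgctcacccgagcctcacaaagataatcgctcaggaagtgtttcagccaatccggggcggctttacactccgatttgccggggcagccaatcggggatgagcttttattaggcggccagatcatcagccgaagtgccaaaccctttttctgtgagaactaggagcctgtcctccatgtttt
NCOA3: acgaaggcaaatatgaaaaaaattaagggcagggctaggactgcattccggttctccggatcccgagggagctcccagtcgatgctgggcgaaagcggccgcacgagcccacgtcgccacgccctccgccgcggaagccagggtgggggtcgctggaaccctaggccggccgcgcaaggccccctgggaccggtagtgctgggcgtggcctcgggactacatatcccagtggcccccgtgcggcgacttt
Both strands of these 250 bases were searched. The ZMYND8 sequence held the pattern TTGCNNCAA once, as TTGCTGCAA, whose letters match on either strand and whose first base lies 234 bases before the start. Of 35116 RefSeq promoter windows of this length, 1.62% held that pattern. The C/EBP motif TTGCGCAA, held by 0.131% of windows, and the AP-1 motif TGANTCA, held by 6.57%, matched neither sequence. TTGCGCAA is 1 base shorter than TTGCNNCAA, so it is not a narrower form of that pattern. Its parts TTGC and GCAA adjoin, while in TTGCTGCAA a T lies between them. The match in capitals is therefore not a match to TTGCGCAA. The NRF2 element TGANNNNGC, held by 35.2% of windows, matched the ZMYND8 sequence once, clear of the match in capitals, and did not match the NCOA3 sequence. The 250 bases before the inner ZMYND8 start held 1 NRF2 element and none of the others. The NCOA3 sequence is rich in G and C, at 66.4%, against 50.8% for the ZMYND8 sequence shown. A match of letters is not evidence of binding.

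Peaks of the window covered less sequence after knockdown with either siRNA, while their number was about the same. Called length, the sequence lying inside peaks, was 82.6 kb in the siRNA-1 library and 92.9 kb in the siRNA-2 library, against 131 kb in control 1 and 124 kb in control 2. Both knockdown libraries lay below both controls. The means were 87.7 ± 7.29 kb after knockdown and 127 ± 4.97 kb with control siRNA (SD, n = 2 each), a knockdown minus control difference of -39.4 kb or 31.0% less, larger than the spread within either group. Peaks thus filled 13.8 and 15.5% of the window after knockdown, against 21.8 and 20.6% in the controls. The siRNA-1 library had the least called length here although it had the most over chromosomes 1 to 22 and X.

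**Figure D1:**
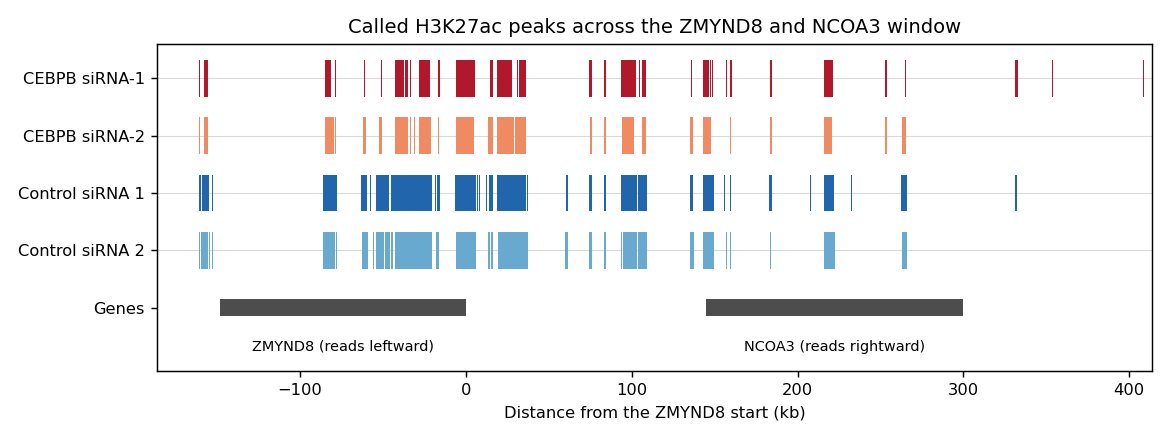
Peaks of the 4 libraries (coloured boxes) along the window, by distance from the ZMYND8 start in kb, with the limits of the genes as grey bars. Called length was 82.6 and 92.9 kb in the siRNA rows, against 131 and 124 kb in the control rows, and the controls have the longer boxes inside ZMYND8.

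Windows of 600 kb along the genome give the setting. Of 4236 such windows with any peak, 1182 (27.9%) had less called length with both siRNAs than in both controls, and 1341 (31.7%) had more. The ZMYND8 and NCOA3 locus is among the most heavily acetylated: 99.7% of windows had less called length in the controls. Among the 232 windows with 50 kb or more called in the controls, the knockdown mean was a median of 94.2% of the control mean, with a range of 40.0 to 191%. It was 69.0% at this locus, and 25 of the 232 windows (10.8%) had that share or a lower one. The locus was picked for being shorter, so this rank describes where it lies and supports nothing.

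**Figure D2:**
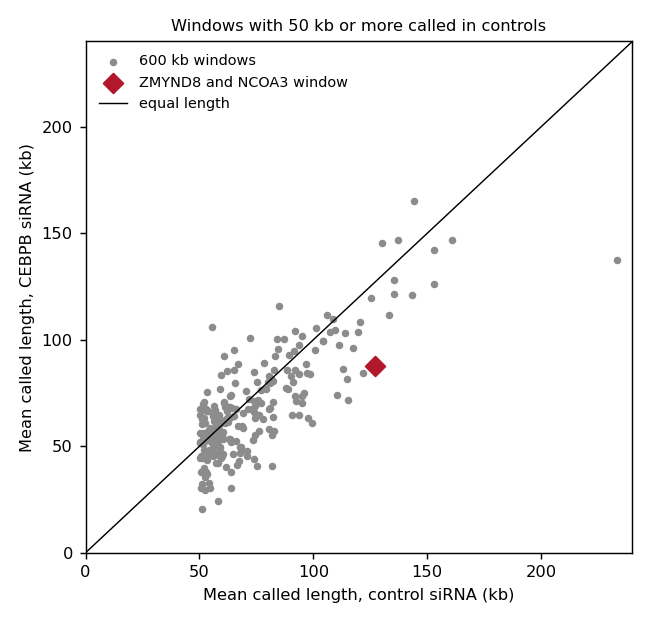
Mean called length (kb) with CEBPB siRNA against that with control siRNA in the 232 windows of 600 kb that have 50 kb or more called in the controls (grey points), with the line of equal length. The red diamond is the locus, which has limits of its own and shares peaks with windows it overlaps. The locus lies at 87.7 kb after knockdown and 127 kb in the controls, under the line.

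The peaks were narrower after knockdown, while their number did not separate the groups. Their median width in the window was 755 bp for siRNA-1 and 913 bp for siRNA-2, against 1185 bp in control 1 and 1243.5 bp in control 2. Over all peaks of a library the median was 758 and 670 bp, against 798 and 712 bp. Peaks longer than 5 kb numbered 5 and 6 after knockdown and together covered 37.1 and 50.6 kb. In the controls there were 8 and 7 of them, covering 89.5 and 70.2 kb. The longest peak after knockdown lay over the ZMYND8 start with either siRNA, at 10.6 and 11.3 kb. In control 1 the longest peak was instead a 21.96 kb stretch inside ZMYND8 (45942773 to 45964735), and in control 2 a 17.9 kb stretch between the genes (46005364 to 46023220). These ranked 55 and 65 by width among all peaks of their libraries.

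At a joining distance of 10 kb, the outer limits of the acetylated cluster stayed close to where they were in the controls. With peaks joined across gaps of up to 10 kb, the main cluster ran from inside ZMYND8, across its start, into the stretch between the genes. It spanned 98.0 and 98.8 kb after knockdown (siRNA-1, then siRNA-2), against 100.2 kb in control 1 and 99.8 kb in control 2. Within those limits 43.2 and 53.4 kb were called after knockdown, against 73.7 and 70.5 kb in the controls. At this joining distance the cluster was therefore shorter in called sequence and of nearly the same reach. No other distance was tried, and gaps close to 10 kb are bridged in every list. The siRNA-1 list had no call between 45970201 and 45980130, and siRNA-2 none between 45969981 and 45979853. Control 1 had none between 45970442 and 45979658, and control 2 none between 45970103 and 45979423. A further such gap with siRNA-1 (45925302 to 45934936) set apart its end peak of 0.892 kb, at percentile 20.3. A second cluster, between the genes and nearer to NCOA3 (from 46060242 to 46097735 over all libraries), had 15.6 and 14.6 kb called after knockdown, against 18.6 and 17.5 kb in the controls.

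ZMYND8 held the largest part of the difference, -22.1 of -39.4 kb, and the other stretches less. Over the 148 kb of ZMYND8, called length was 27.6 and 34.1 kb after knockdown, against 54.1 and 51.8 kb in the controls. The means were 30.8 ± 4.54 kb after knockdown and 52.9 ± 1.68 kb with control siRNA (SD, n = 2 each), 41.7% less. In the 145 kb between the genes it was 38.1 and 43.8 kb, against 51.7 and 49.4 kb, or 18.9% less. Over the 155 kb of NCOA3 it was 11.6 and 11.8 kb, against 17.2 and 16.3 kb, or 30.2% less. In the 38 kb before ZMYND8, past its far end, it was 2.45 and 3.24 kb, against 6.78 and 5.70 kb. In each of these stretches both knockdown libraries lay below both controls. The 114 kb beyond NCOA3 held little: siRNA-1 had 2.80 kb and siRNA-2 had none, against 0.879 and 0.544 kb, values that overlap between the groups.

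**Figure D3:**
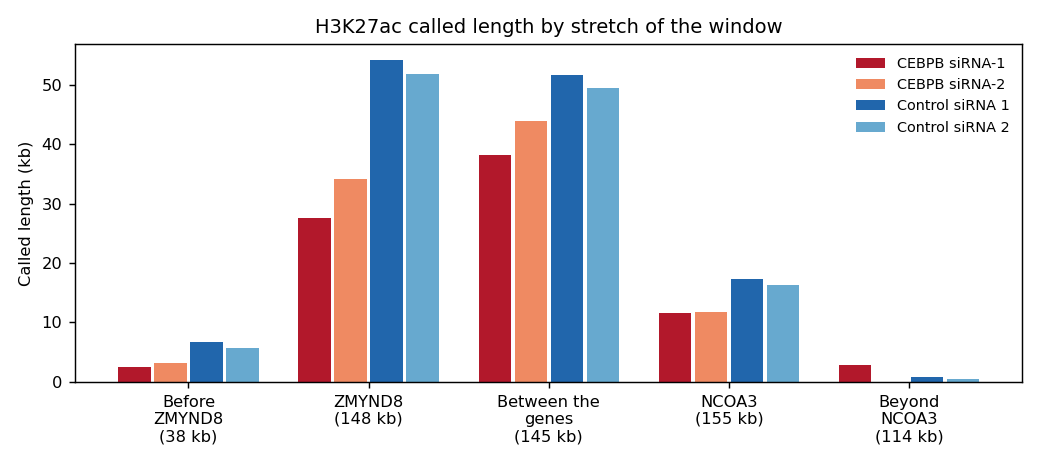
Called length (kb, bars from 0) in 5 stretches of the window, 1 bar per library. Over ZMYND8 the siRNA bars reach 27.6 and 34.1 kb and the control bars 54.1 and 51.8 kb, and between the genes the gap is smaller.

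The bases themselves can be sorted in the same way. In the window 118 kb were called in both controls, and 25.3 kb of these (21.4%) were called with neither siRNA. Over the genome that share was 12.4%. The reverse was rare here: of 73.4 kb called with both siRNAs, 1.2 kb (1.64%) were called in neither control, where the share over the genome was 12.6%. Over ZMYND8 14.6 of 49.1 kb called in both controls were called with neither siRNA (29.8%), and over NCOA3 3.32 of 15.2 kb were (21.8%). Between the genes the share was 10.8%, or 5.21 of 48.2 kb. Of the 25.3 kb, 14.6 kb (57.4%) lay at the outer edges of regions that were still called after knockdown, and 6.59 kb (26.01%) in gaps inside such regions. Whole regions missing with both siRNAs held 2.16 kb (8.52%).

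Of the 46 merged regions, 21 were called in all 4 libraries, 4 in both controls and neither knockdown library, and 1 in both knockdown libraries and neither control. The other 20 had other combinations, 8 of them called in control 1 alone and 4 with siRNA-1 alone. The 4 missing with both siRNAs made up 14.3% of the 28 that each control had, where the share over the genome was 13.3%. The 1 gained region was 4.55% of the 22 called with both siRNAs, where the share was 13.6%. Both shares of whole regions were thus near or under those of the genome. Among the 21 regions called in all 4 libraries, 17 were shorter with both siRNAs than in both controls, against 25.6% of such regions over the genome, and 1 was longer, against 26.9%. Of the 13 that averaged 2 kb or more in the controls, 12 were shorter, against 37.9% over the genome. The contrast that chose the window also sets these counts, so nothing is read from them. The median region kept 72.9% of its control length, with a range of 16.1 to 196%, and over the genome the median was 101%. Regions over the genome are mostly shorter than those here. For regions of 2 kb or more in the controls the median was 72.9% in the window and 95.9% over the genome. For those under 2 kb it was 78.1 and 105%.

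**Figure D4:**
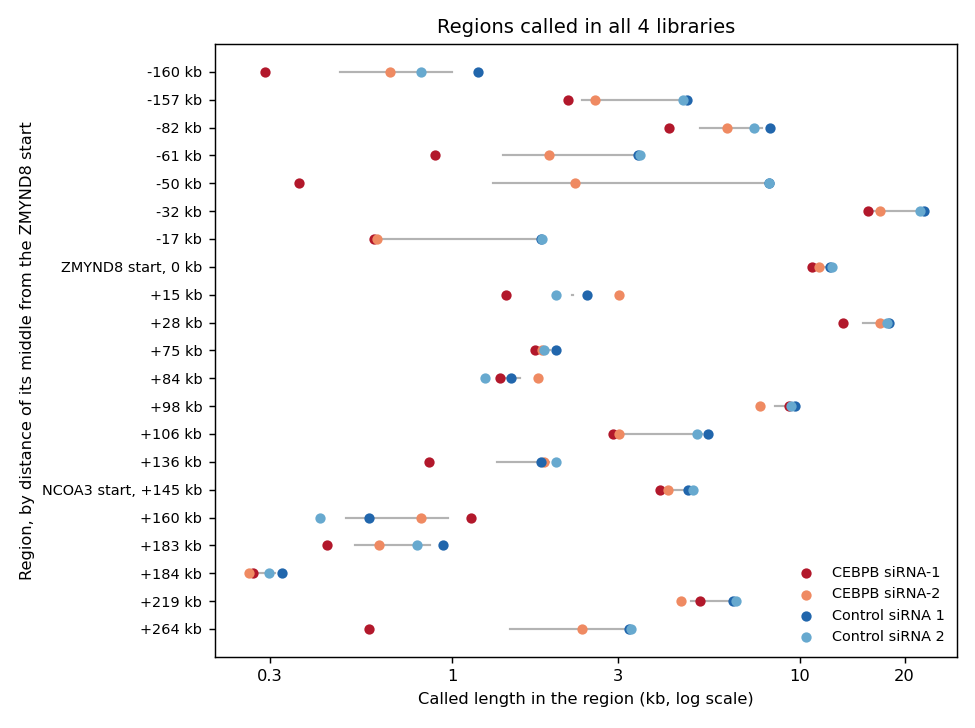
Called length (kb, log scale) of the 21 regions called in all 4 libraries, 1 point per library, with a grey line joining the group means. Regions run down the page along the chromosome. In 17 of them both siRNA points lie left of both control points, with a wide gap in the region inside ZMYND8 that kept 16.1% of its control length.

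At the ZMYND8 start, the promoter region (45979423 to 45991962) was the most enriched or second most enriched of the window by the authors' fold enrichment in every library, and it kept most of its length. It was called over 10.8 and 11.3 kb after knockdown, against 12.2 and 12.3 kb in the controls, or 90.2% of the control mean. The authors' fold enrichment at its summit was 58.3 and 58.7 in the knockdown lists and 76.0 and 67.6 in the control lists. Fold enrichments depend on each library's depth and background. Those printed here and below are each list's own values, and no difference between lists is read from them. Within its own list the region stood at percentile 99.2 and 99.5 of peaks by −log10 q after knockdown, and at 99.8 in each control. The strongest summit lay at 45985996 and 45985902 with the siRNAs, 94 bp apart. In the controls it lay at 45986667 and 45988444, 1777 bp apart, so all 4 were within a few kb of the gene's start.

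Inside ZMYND8 the regions kept less of their length than at its start. All 6 regions over the gene called in all 4 libraries, the promoter region included, were shorter with both siRNAs. Over the genome the share was 25.6%, and 37.9% for regions of 2 kb or more in the controls. The contrast that chose the window also sets such counts by gene, so nothing is read from them. The 6 regions kept 16.1 to 90.2% of their control length, with a median of 53.6%. The least was kept by a region 45.6 to 54.3 kb inside the gene from its start (45931670 to 45940367). It was called over 0.363 and 2.26 kb after knockdown, against 8.16 kb in control 1 and 8.13 kb in control 2. The 2 controls were nearly equal, and both knockdown libraries were far below them. Its fold enrichment was 3.90 and 7.48 in the knockdown lists and 30.2 and 29.9 in the control lists, at percentiles 10.4 and 54.6 after knockdown and 95.8 and 95.0 in the controls. All 4 summits of the region fell within 263 bp, so what remained called lay at the place of the control summits. The adjoining region (45940756 to 45942731) was called over 1.68 and 1.81 kb in the controls and had no peak with either siRNA. Of the 4 regions missing with both siRNAs it was the only one whose −log10 q reached 10 in each control list, at 10.6 and 11.8.

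Next to it, nearer the start, lay the longest region of the window (45942773 to 45965903). It was called over 15.7 and 16.98 kb after knockdown, against 22.7 and 22.2 kb in the controls, or 72.9%. In the knockdown lists it was broken into 6 and 5 peaks, and in the control lists into 2 and 4. One gap was shared by both siRNAs. A block of peaks ended at 45951368 with siRNA-1 and at 45951445 with siRNA-2, and the next long peak began at 45957626 and 45957531. Between those places siRNA-1 had 2 short peaks and siRNA-2 had 3. Control 1 was called there without a break, and control 2 was called with short breaks after 45952893 and after 45953948. The siRNA-1 list had further breaks after 45949023 and after 45964191 where siRNA-2 was called throughout, and control 2 broke near the second of these, after 45964273. In both controls the strongest summit was at 45947540 and 45947481. With siRNA-1 it was at 45947638, and with siRNA-2 the strongest peak was the one at the other end of the region, with its summit at 45963490.

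**Figure D5:**
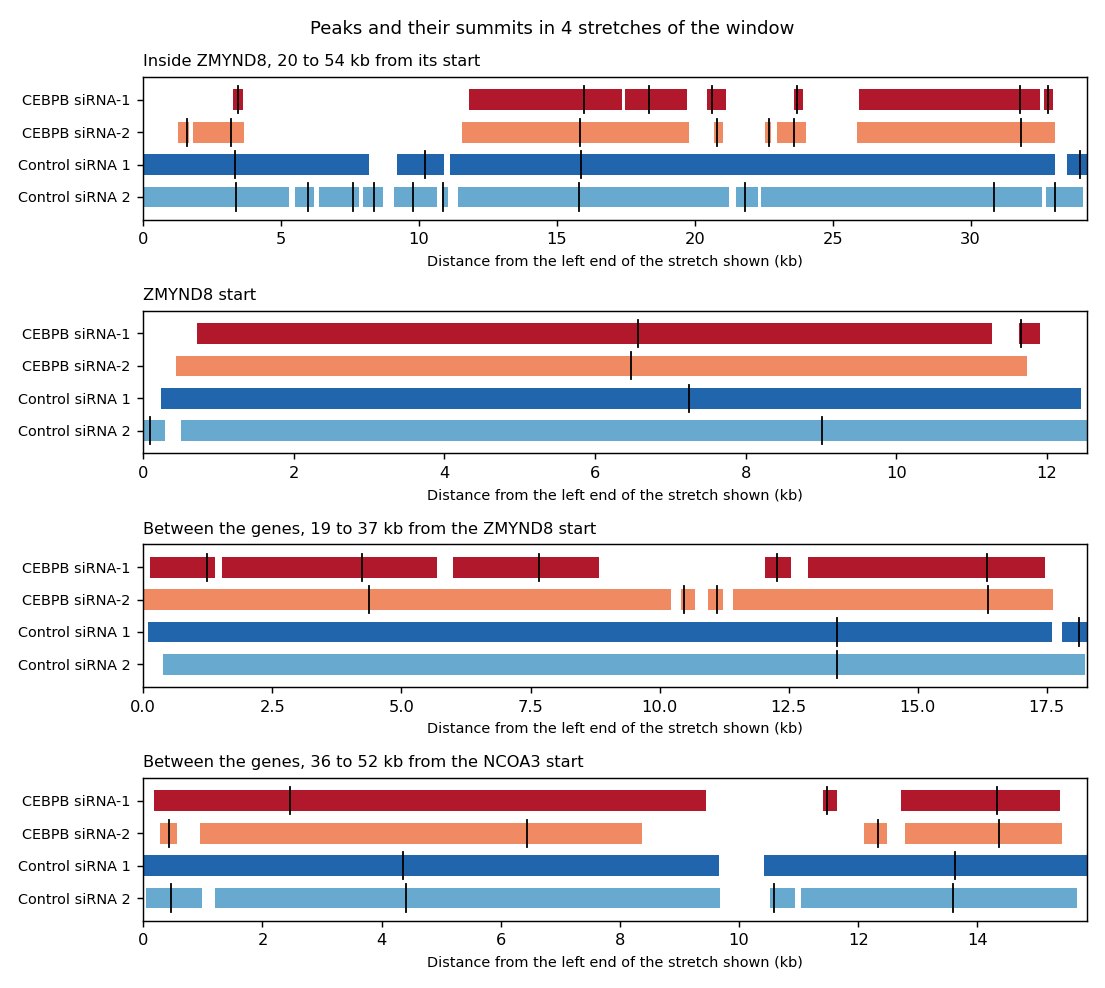
Peaks (boxes) and their summits (black ticks) of each library in 4 stretches of the window, by distance in kb from the left end of the stretch. In the top stretch, inside ZMYND8, the siRNA rows are empty over most of the first 11 kb, where most of both control rows is called.

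Farther into ZMYND8 and past its end the pattern was similar. A region 59.1 to 63.0 kb from the start (45923030 to 45926874) was called over 0.892 and 1.91 kb after knockdown, against 3.42 and 3.46 kb in the controls. Another, 77.8 to 86.0 kb from the start (45900049 to 45908230), was called over 4.20 and 6.16 kb, against 8.18 and 7.38 kb. A strongly enriched region beyond the far end of the gene (45826613 to 45831600) was called over 2.16 and 2.57 kb, against 4.73 and 4.599 kb. Its summits fell within 90 bp in all 4 lists, so the peak had the same centre and shorter flanks. Near the start a small region (45968295 to 45970442) was called over 0.598 and 0.609 kb, against 1.81 kb in each control. In none of these regions did the lengths overlap between the groups.

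Between the genes, the regions kept more of their length. Leaving out those over the gene starts, 4 of 7 regions called in all 4 libraries were shorter with both siRNAs. In the other 3 the groups overlapped, and the median of the 7 was 89.1% of control length. Over the genome the share that was shorter was 25.6%, and 37.9% for regions of 2 kb or more in the controls. The longest (46004980 to 46023266) was called over 13.3 and 16.99 kb after knockdown, against 18.0 and 17.9 kb in the controls. It was 5 peaks under siRNA-1 and 4 under siRNA-2, where control 1 had 2 and control 2 had 1. Its control summits were 12 bp apart, at 46018410 and 46018422. With siRNA-1 the strongest summit was at 46021314, and with siRNA-2 at 46009355 on the other side, so the strongest point of the region differed between the siRNAs. Both knockdown lists also had a peak with its summit close to 46021314, the siRNA-2 one at 46021345, and neither had a summit within 1 kb of the control ones. The place of the control summits was still called with both siRNAs, inside those peaks (46017854 to 46022452 and 46016394 to 46022599). Each peak has only 1 summit in the lists.

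A pair of neighbouring regions nearer to NCOA3 differed in how much they kept. The larger (46079310 to 46088984) was the most or second most enriched of the window in both controls. It was called over 9.27 and 7.70 kb after knockdown, against 9.66 and 9.40 kb in the controls, or 89.1%. Its fold enrichment was 36.5 and 34.4 in the knockdown lists and 70.0 and 70.3 in the control lists. Its control summits were 48 bp apart, and its knockdown summits 3978 bp apart, on either side of them. The smaller region beside it (46089720 to 46095156) was called over 2.90 and 3.03 kb, against 5.44 and 5.05 kb, or 56.5%. In that one the summits were 47 bp apart with the siRNAs and 22 bp apart in the controls, and the knockdown pair lay about 737 bp nearer to NCOA3. A small region (46046126 to 46047657) was without a peak under siRNA-1 and had 0.233 kb called under siRNA-2, against 1.51 and 1.53 kb in the controls.

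At the NCOA3 start (46128826 to 46133742) the promoter region also kept most of its length. It was called over 3.96 and 4.18 kb after knockdown, against 4.77 and 4.92 kb in the controls, or 84.0%. Its fold enrichment was 17.7 and 22.1 in the knockdown lists and 24.4 and 28.8 in the control lists, at percentiles 85.1 and 86.3 after knockdown and 89.9 and 92.8 in the controls. A flanking region just inside the gene (46133915 to 46135857) was called over 0.882 kb with siRNA-1 and not at all with siRNA-2, against 1.94 and 1.64 kb in the controls.

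Inside NCOA3 the strongest region (46201825 to 46208407) was called over 5.15 and 4.56 kb after knockdown, against 6.43 and 6.55 kb in the controls, or 74.8%. Its summits fell within 256 bp in all 4 lists. Its fold enrichment was 22.6 and 13.02 in the knockdown lists and 48.7 and 36.9 in the control lists. A weaker region (46248575 to 46252021) was called over 0.577 and 2.36 kb, against 3.22 and 3.27 kb, and the siRNAs differed from each other by more than the controls did. In all, 5 of the 6 regions over NCOA3 called in every library were shorter with both siRNAs. Over the genome the share was 25.6%, and 37.9% for regions of 2 kb or more in the controls.

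NCOA3 also held both regions of the window that went the other way with both siRNAs. A region in its first part (46145119 to 46146327) was called over 1.13 and 0.813 kb after knockdown, against 0.575 and 0.416 kb in the controls. The gained region (46238908 to 46239902) was called over 0.892 and 0.699 kb with the siRNAs, at a −log10 q of 10.1 and 9.32, and not in either control. Both were named after their values were seen.

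At the limits of the window little was called. The first region inside the lower limit had 0.287 kb in control 1 alone, and the nearest one outside it, 30.3 kb below the limit, had 0.931 and 1.76 kb after knockdown, against 1.29 and 1.57 kb in the controls. The last region inside the upper limit had 0.425 kb with siRNA-1 alone, and the first outside it 0.242 kb with siRNA-1 alone. How far the siRNAs lowered CEBPB, and the expression of ZMYND8 or NCOA3, were not measured by these libraries. A region with no peak is a region without a call and may still be acetylated.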

How the data were processed

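The data are 4 deposited H3K27ac peak lists of A549 cells, 1 per library. The submitters' processing notes name MACS2 2.2.7.1, BWA 0.7.17 and SAMtools 1.7.0, with hg19 as the build. Their options, and whether the 4 input libraries entered, were not given in the sources used here. For each peak the deposited lists hold a start, an end, a summit, a score, a −log10 p, a −log10 q and a fold enrichment (linear ratio), none scaled between libraries. From these, called length, merged regions (overlap of 1 bp or more), windows of 600 kb and bases shared between lists were computed with Python 3.11.15, pandas 2.3.3 and numpy 2.4.6, and the steps were tested on simulated lists. Peak widths and the deposited −log10 q depend on depth, which is unknown, so 2 libraries of unequal depth can differ in called length with no difference in acetylation.

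The window and the genes were chosen with earlier results of these data known. Named regions are those over each gene start, the 10 with the largest difference in called length, lost or gained regions whose −log10 q reaches 10 in each library that has them, and the strongest region. Others named are the neighbours and exceptions of these. A list of other acetylation readers and writers was not analysed here, because no annotation of hg19 was at hand. Promoter sequences are RefSeq's on GRCh38.p14 and no coordinate was converted.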

Additional observations from a re-analysis of the deposited data

How the results depend on the processing

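Some alternatives could change the knockdown minus control called length. These were leaving out peaks of weak q, equal called length, division by library total and, over each gene, wider gene limits. Under them it kept its sign in the window, before and over ZMYND8, between the genes and over NCOA3. In those stretches it moved by less than 1 SD of the libraries within groups. The window was chosen for less called length in these same lists, which favours that sign at each setting, so the kept sign supports nothing. Leaving out a library could test neither the sign nor the size of the move. With both knockdown values below both controls there, the difference could not change sign. With 2 libraries per group it could not move by more than that SD. Without each library in turn it ranged from -44.6 to -34.3 kb in the window, from -25.3 to -18.9 kb over ZMYND8, from -12.4 to -6.68 kb between the genes, from -5.54 to -4.58 kb over NCOA3, from -3.93 to -2.86 kb before ZMYND8 and from -0.7115 to 2.08 kb beyond NCOA3, where it was -0.7115 kb without siRNA-1. The labels number the libraries, but no source says that a number marks a shared batch. Over 4236 windows, library 1 minus library 2 correlated at r = 0.3197 between the groups, and with 2 pairs the numbers were not taken as pairs. With the replicate block the difference was -39.4 kb, the same by construction, made up of -48.1 kb for number 1 and -30.8 kb for number 2.

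The difference in number of peaks was 1, with no stable direction. It was -3 at a −log10 q of 10 or more, -2.5 at equal called length, -1.05 divided by library total, and ranged from -1.5 to 3.5 without each library (-0.5 without siRNA-1, -1.5 without control 1). The 17 shorter regions became 10 of 12 at a −log10 q of 10 or more, against 24.6% of such regions over the genome. They became 11 of 12 at equal called length, against 24.7%. After stitching within 10 kb, where fewer regions enter by construction, they became 8 of 8, against 25.9%. Without each library they ranged from 17 to 20. The contrast that chose the window sets these counts at every setting, so nothing is read from them. The 4 lost regions became 6 at a −log10 q of 10 or more, 2 at equal called length, 2 when no peak was allowed within 1 kb and 0 after stitching. They became 5 to 15 without each library (15 without control 1, 14 without control 2), where fewer calls are required. The 1 gained region became 0 after stitching and 1 to 6 without each library (2 without siRNA-1, 6 without siRNA-2). For lost and gained regions, the shares over the genome under these alternatives were not computed. Windows shorter with both siRNAs ranged from 1248 to 1871 without each library, 1871 being without siRNA-1. Equal called length was 61.7 Mb.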
